A study of Mus musculus with 4 samples.

Results

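The Rab GTPases form the largest branch of the Ras superfamily of small GTP-binding proteins. Their genes were read in 4 Affymetrix mouse expression arrays of sorted bone marrow cells, 2 of the long-term (LT-HSC) and 2 of the short-term (ST-HSC) compartment of haematopoietic stem cells. Members were all genes whose single annotated symbol was Rab followed by a number and at most 1 letter, which gave 59 of the 18193 genes named on the array. These genes had 132 probe sets, and each gene was represented by the probe set with the highest mean over the 4 arrays. Every mouse was a control animal without the Mx-Cre transgene (MxCre-) on a C57BL/6 background, and the genotype was the same in both groups. Every animal was given the interferon inducer poly(I:C) in 7 injections on alternate days. Both compartments were sorted as Lin-cKit+Sca1+ cells without CD135, and CD34 was absent from LT-HSC and present on ST-HSC. The tissue field of both ST-HSC arrays gives the long-term name although the gate is CD34+, and groups follow the sample titles. Replicates 1 and 2 of LT-HSC and replicate 2 of ST-HSC came from mice aged 7.5 weeks, killed 4 weeks after the last injection. ST-HSC replicate 3 came from mice aged 8.5 weeks, killed 3 weeks after it. The labels do not say whether the replicates of LT-HSC were separate animals, so p-values measure the spread between these arrays, which may be technical. The comparison asks which genes differ between the stages in these control mice.

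Rab proteins switch between a GDP-bound form held in the cytosol and a GTP-bound form on a membrane, where they recruit tethers, motors and fusion factors. Each is found on particular membranes, so that the family marks the steps of traffic from the endoplasmic reticulum through the Golgi to the cell surface, and from the surface through endosomes to the lysosome. In blood cells, Rabs of the exocytic branch and of lysosome-related organelles are best known for granule release in platelets, mast cells, neutrophils and cytotoxic lymphocytes.

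The CD34 transcript followed the gates, with intensities of 18.3 and 23.5 on the LT-HSC arrays against 841 and 1142 on the ST-HSC arrays. Of 5 surface markers of stem cells 0 were higher in LT-HSC and 2 in ST-HSC, Cd34 and Kit. Kit read 397 and 382 against 684 and 907 although both gates were cKit+ (limma adjusted p = 0.0498). Flt3 (CD135) read 62.3 and 53.4 against 258 and 134 and did not pass. Of 9 stem cell genes 0 were higher in LT-HSC and 3 in ST-HSC (Tal1, Lmo2 and Gfi1b), with a median log2 difference of -0.81. Array medians lay between 19.1 and 28.3. Other cell types were also represented: all 9 of 9 plasma cell markers were higher in LT-HSC, with summed intensities of 65083 and 66190 there against 1727 and 3214 in ST-HSC. Of 7 tested markers of B cells 4 were called as higher in LT-HSC, with sums of 4760 and 5273 against 338 and 448. Among 9 markers of monocytes and dendritic cells 4 passed toward LT-HSC and 0 toward ST-HSC, with sums of 9236 and 10537 against 2376 and 4871. The 4 were Cd68 and the MHC class II pathway genes Cd74, H2-Aa and H2-Ab1. Cd74 alone read 5474 and 6529 against 420 and 399. Lyz2 and Itgax lay on the other side and did not pass, Lyz2 with 192 and 85.9 against 428 and 3144. Among 5 tested markers of T and NK cells 2 passed toward LT-HSC (Cd3g and Gzma) and 1 toward ST-HSC (Nkg7). The sums of this list were 389 and 676 against 1367 and 1497, of which Nkg7 alone read 137 and 313 against 1277 and 1404. The 9 neutrophil markers summed to 3878 and 522 on LT-HSC replicates 1 and 2, and to 3461 and 49028 on ST-HSC replicates 2 and 3, and 0 of them passed the threshold. Of 14 proliferation genes 11 were higher in ST-HSC and 3 did not pass. The part of these cells in the Rab differences was not tested, and in sorted bulk RNA fewer cells of a type and less RNA per cell cannot be told apart.

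Promoter windows, the 250 bases before the annotated RefSeq start on GRCm38.p6, were listed for 48 of the 59 Rab genes (60 windows) and for 6 of the 9 called in the comparison described below. A GC box (GGGCGG, read on both strands), the binding motif of Sp1, lay in 40 of the 60 Rab windows (66.7%) and in 32.7% of all 32851 windows of that length. The TATA motif (TATAAA, both strands) lay in 6.67% of the Rab windows and in 12.4% of all windows. The median GC content was 60.2% in the Rab windows and 52.4% in all windows. An ETS-type motif (GAGGAAGT, both strands), of the kind that PU.1 binds, lay in 3.33% of the Rab windows and 2.44% of all windows. The windows of 4 of the called genes are shown: a pair that was higher in LT-HSC and a pair that was higher in ST-HSC. They are Rab1a (chr11:20201162-20201411, plus strand), Rab3d (chr9:21918184-21918433, minus strand), Rab31 (chr17:65772753-65773002, minus strand) and Rab32 (chr10:10558208-10558457, minus strand). Each is written 5′ to 3′ along its gene. Capitals mark GC boxes in Rab1a, Rab3d and Rab31, and the ETS-type motif in Rab32.
Rab1a: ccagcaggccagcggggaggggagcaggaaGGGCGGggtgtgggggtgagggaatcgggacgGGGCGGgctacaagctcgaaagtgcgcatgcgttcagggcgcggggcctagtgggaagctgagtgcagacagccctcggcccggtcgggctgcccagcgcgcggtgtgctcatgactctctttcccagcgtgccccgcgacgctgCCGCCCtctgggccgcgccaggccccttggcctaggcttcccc
Rab3d: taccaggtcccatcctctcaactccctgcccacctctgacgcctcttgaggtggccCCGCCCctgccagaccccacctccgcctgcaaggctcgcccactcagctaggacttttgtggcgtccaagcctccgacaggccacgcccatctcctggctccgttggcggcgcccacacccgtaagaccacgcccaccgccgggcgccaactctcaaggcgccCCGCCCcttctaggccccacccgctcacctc
Rab31: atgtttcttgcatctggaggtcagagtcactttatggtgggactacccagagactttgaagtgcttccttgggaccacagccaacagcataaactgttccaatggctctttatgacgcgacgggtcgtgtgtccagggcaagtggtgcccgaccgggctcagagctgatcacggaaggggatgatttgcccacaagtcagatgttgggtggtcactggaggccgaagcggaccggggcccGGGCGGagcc
Rab32: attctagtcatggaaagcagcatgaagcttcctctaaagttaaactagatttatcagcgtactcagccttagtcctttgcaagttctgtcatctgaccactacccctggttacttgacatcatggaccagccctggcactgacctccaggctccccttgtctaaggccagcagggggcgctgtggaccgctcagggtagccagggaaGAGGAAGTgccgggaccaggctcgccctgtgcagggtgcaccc
The Rab1a window held 3 GC boxes, that of Rab3d 2 and that of Rab31 1, so the motif was found in genes called in either direction. The Rab32 window held 0 GC boxes and 1 ETS-type motif. The motifs and these 4 genes were chosen with the calls and the motif counts known, and a match describes letters, not a bound site.

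Most Rab genes did not pass the test between the stages. Of the 59 genes 54 passed the filter on dim probe sets, 6 passed as higher in LT-HSC, 3 as higher in ST-HSC and 45 did not pass (limma, Benjamini-Hochberg adjusted p under 0.05 over all probe sets). The shares were 11.1% and 5.56% of the tested members, against 7.92% and 6.41% of all 12832 genes tested, so neither lies far from the background. The median log2 difference, always LT-HSC minus ST-HSC, was 0.05 over the tested Rab genes and -0.08 over all genes. Values for the test are quantile-normalized log2(intensity + 16), a scale that understates changes of dim genes. Both arrays of 1 group lay above both of the other for 29 tested Rab genes (17 with LT-HSC above, 12 with ST-HSC above), and the background for this was 28.6% and 35.7% of all genes. The 5 Rab genes left out as dim were Rab25, Rab33a, Rab39, Rab3c and Rab42. Because the filter uses the mean over all arrays, a gene can pass it through 1 group. The called genes Rab30, Rab9b and Rab44 passed through the group where they were high, their other group lying below the lowest mean kept (5.03). The same held for Rab3b, Rab5c, Rab7b and Rab40b, which were not called.

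**Figure D1:**
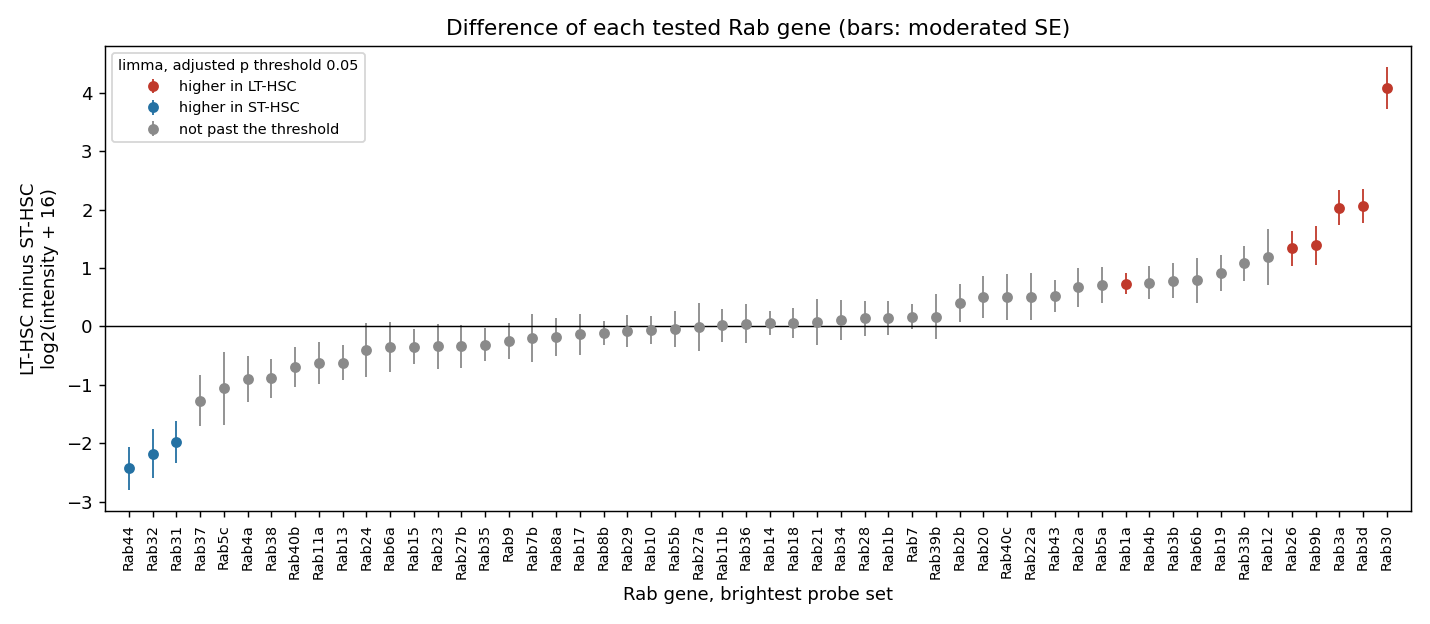
Log2 difference (LT-HSC minus ST-HSC, y axis) of the 54 tested Rab genes in order of size (x axis), with the moderated standard error as bars and colour for the limma call. Rab30 stands alone at 4.08, Rab44, Rab32 and Rab31 lie at -2.43, -2.18 and -1.98, and 45 grey genes did not pass.

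Of 10 tested Rabs of the endoplasmic reticulum and Golgi 2 passed as higher in LT-HSC and 0 as higher in ST-HSC (20% and 0%, against 7.92% and 6.41% of all genes). Differences were above 0 for 9 of the 10, with a median of 0.60, and for 5895 of all 12832 genes. Other probe sets of Rab2a, Rab2b and Rab43, which are among the 9, reached -1.08, -0.72 and -0.34. Rab30, a Golgi Rab, gave the largest difference of the family. Its intensities were 372 and 417 on the LT-HSC arrays and 3.15 and 17.4 on the ST-HSC arrays, so the groups lay far apart and the ST-HSC values were near the floor. The log2 means were 8.69 ± 0.09 (SD, n = 2) and 4.61 ± 0.55 (SD, n = 2), a 16.9-fold difference (4.08, SE 0.36, limma adjusted p = 0.00162). The size depends on the pseudocount, since it was 5.67 with 1 and 2.66 with 64 in place of 16, while the call held under both.

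Rab1a, which directs vesicles from the endoplasmic reticulum to the Golgi, read 3407 and 3456 on the LT-HSC arrays and 1527 and 1942 on the ST-HSC arrays. It was 1.66-fold higher in LT-HSC (0.73, SE 0.18, limma adjusted p = 0.0461), and both LT-HSC arrays lay above both ST-HSC arrays. Its further probe sets differed by 0.66 and 0.48 and did not pass. The call was lost with no filter, without the intensity trend, with a robust spread and with probe sets averaged. The close paralogue Rab1b read 401 and 342 against 311 and 376, with overlapping groups and a difference of 0.15 (95% interval -0.53 to 0.84). Rab33b, a Golgi Rab that also binds the autophagy machinery, read 440 and 423 on the LT-HSC arrays against 248 and 164 (1.08, SE 0.30) and narrowly missed the threshold (limma adjusted p = 0.0615). Rab2a, which acts between these compartments, read 1001 and 923 against 425 and 785 (0.67, SE 0.33, limma adjusted p = 0.219). Leaving out ST-HSC replicate 3 moved Rab2a to 1.11, and leaving out ST-HSC replicate 2 moved it to 0.24. Its other probe sets ran from -1.08 to 1.08, and averaging all its probe sets gave 0.08. Rab6a, which serves traffic within the Golgi and back to the endoplasmic reticulum, was the 1 member below 0 (-0.35, SE 0.43), and its highest value was on ST-HSC replicate 3 (505, against 224 to 251 on the others).

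Of 12 tested exocytic Rabs 3 were higher in LT-HSC (25%, against 7.92% of all genes), 1 was higher in ST-HSC (8.33%, against 6.41%) and 8 did not pass. Their median was -0.08, as it was over all genes. The 3 were Rab3a, Rab3d and Rab26, which are known for the docking and maturation of secretory vesicles and granules. Rab3d, the Rab of exocrine granules, read 623 and 523 on the LT-HSC arrays against 149 and 113 on the ST-HSC arrays, with log2 means of 9.17 ± 0.15 and 7.12 ± 0.13 (SD, n = 2 each). It was 4.16-fold higher in LT-HSC (2.06, SE 0.29, limma adjusted p = 0.00806). Rab3a, the Rab of synaptic vesicles, read 830 and 951 on the LT-HSC arrays against 258 and 161. Its log2 means were 9.77 ± 0.15 and 7.74 ± 0.38 (SD, n = 2 each), a 4.07-fold difference (2.03, SE 0.30, limma adjusted p = 0.0102). Rab26, which recruits granules in secretory cells, read 58.9 and 70.6 against 17.5 and 19.4 (1.34, SE 0.30, limma adjusted p = 0.034), and lost its call with no filter and with no normalization between arrays. None of these groups overlapped, nor did those of 64.3% of all tested genes. Rab3b, the other tested Rab3 gene, had the same sign (27.3 and 33.9 against 13.8 and 13) but did not pass (0.78, SE 0.30, limma adjusted p = 0.135). Its ST-HSC log2 mean of 4.82 lay below the lowest mean kept, so Rab3b passed the filter only through LT-HSC. The fourth, Rab3c, was too dim to test, with its 4 values between 5.97 and 19.5. The plasma cell markers were higher on these same LT-HSC arrays (9 of 9, sums given above), and their part in the 3 differences was not tested.

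Rab44, a large Rab with a calcium-binding region that acts in mast cell degranulation, was higher in ST-HSC. Its intensities were 10.4 and 19.5 on the LT-HSC arrays and 128 and 209 on the ST-HSC arrays, with log2 means of 4.99 ± 0.07 and 7.42 ± 0.57 (SD, n = 2 each). The difference was 5.38-fold (-2.43, SE 0.37, limma adjusted p = 0.0107) with no overlap, -3.23 with a pseudocount of 1 and -1.47 with 64. Mast cell and basophil markers summed to 394 and 477 on the LT-HSC arrays and 1054 and 710 on the ST-HSC arrays. Of the 5, 1 was higher in each group, Mcpt8 in LT-HSC and Ms4a2 in ST-HSC. The sums include Gata2, also counted among the stem cell genes, which read 172 and 133 against 601 and 291 and did not pass. Rab37, another Rab of mast cell granules, read 69.6 and 81.0 on the LT-HSC arrays against 346 and 134 on the ST-HSC arrays (-1.27, SE 0.44) and did not pass (limma adjusted p = 0.105). With ST-HSC replicate 3 left out Rab37 lay at -1.86, and with ST-HSC replicate 2 left out it lay at -0.68. The mean of its probe sets passed (-1.12, limma adjusted p = 0.0238). Rab27a, which tethers lytic granules and melanosomes, overlapped between groups (184 and 180 against 297 and 125; -0.01, 95% interval -0.98 to 0.96).

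Rab8b, an exocytic Rab of polarized transport, read 1294 and 1144 on the LT-HSC arrays and 1107 and 1219 on the ST-HSC arrays (-0.11, 95% interval -0.59 to 0.38). Rab10, which carries vesicles to the basolateral surface and glucose transporters to the plasma membrane, read 1170 and 1132 against 1225 and 949 (-0.06, 95% interval -0.63 to 0.52). Without between-array normalization, with median centring and with cyclic loess, both signs turned (Rab8b to 0.07, 0.17 and 0.04, Rab10 to 0.09, 0.20 and 0.07).

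Among 11 tested Rabs of late endosomes, lysosomes and lysosome-related organelles 1 was higher in each group and 9 did not pass. Each share was 9.09%, near the 7.92% (LT-HSC) and 6.41% (ST-HSC) of all genes. Rab32, which with Rab38 sorts cargo to melanosomes and platelet dense granules, read 33.4 and 34.0 on the LT-HSC arrays against 164 and 320 on the ST-HSC arrays. Its log2 means were 5.70 ± 0.23 and 7.87 ± 0.75 (SD, n = 2 each), a 4.52-fold difference (-2.18, SE 0.42, limma adjusted p = 0.0229). Rab38 read 1326 and 913 against 2437 and 1332, with both ST-HSC arrays above both LT-HSC arrays. It did not pass (-0.89, SE 0.34, limma adjusted p = 0.138), and its other probe set lay at -1.03. Without ST-HSC replicate 3, the array of the older mice, the Rab38 difference was -1.40. Without ST-HSC replicate 2 it was -0.42. Of 8 platelet and megakaryocyte markers 2 (Vwf and Clec1b) were higher in LT-HSC and 2 (Gp5 and Gp9) in ST-HSC, with a median of -1.22. Their sums were 2166 and 2086 on the LT-HSC arrays and 3472 and 1998 on the ST-HSC arrays.

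Rab9b, a relative of the Rab9 that returns cargo from late endosomes to the Golgi, read 38.7 and 59.3 on the LT-HSC arrays against 5.55 and 16.7. It was 2.63-fold higher in LT-HSC (1.39, SE 0.33, limma adjusted p = 0.0425), but this dim gene lost the call with a pseudocount of 1 (2.43, limma adjusted p = 0.0554), with no filter, with no normalization between arrays and without ST-HSC replicate 2. Rab9 itself read 256 and 278 against 286 and 398 (-0.25, SE 0.31, limma adjusted p = 0.62). Rab7, the Rab of lysosome fusion, read 1260 and 1354 on the LT-HSC arrays against 959 and 1111 (0.17, 95% interval -0.33 to 0.67). Both LT-HSC arrays of Rab7 lay above both ST-HSC arrays, by less than the error of the fit.

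The early endosomal and recycling group had 14 tested members, of which 0 were higher in LT-HSC, 1 was higher in ST-HSC and 13 did not pass. These shares were 0% and 7.14%, against 7.92% and 6.41% of all genes. The called gene was Rab31, which moves cargo between the trans-Golgi and endosomes. It read 264 and 217 on the LT-HSC arrays and 1248 and 741 on the ST-HSC arrays, with log2 means of 8.02 ± 0.23 and 10 ± 0.63 (SD, n = 2 each). The difference was 3.94-fold with no overlap (-1.98, SE 0.36, limma adjusted p = 0.0188). Its dimmer probe set lay at -0.57 and did not pass. Proliferation genes were also higher on the ST-HSC arrays where Rab31, Rab32 and Rab44 were high (11 of 14, with sums of 21714 and 23956 against 6208 and 7916), and their part in these differences was not tested.

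The Rab5 genes, which govern fusion of early endosomes, differed in sign among themselves, and 0 of the 3 passed. Rab5a read 1028 and 846 on the LT-HSC arrays against 660 and 424 (0.71, SE 0.30, limma adjusted p = 0.168). Leaving out ST-HSC replicate 2 moved Rab5a to 1.10, and leaving out ST-HSC replicate 3 moved it to 0.38. Rab5b lay at -0.04 (95% interval -0.77 to 0.69). Rab5c read 10, 14.2 and 14.8 on the LT-HSC arrays and ST-HSC replicate 2, but 106 on ST-HSC replicate 3 (-1.06, SE 0.63). Neutrophil markers summed to 49028 on that array and to at most 3878 on the others, and their part in the difference was not tested. Without ST-HSC replicate 3 the Rab5c difference was -0.04, and without ST-HSC replicate 2 it was -2.04.

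Of the recycling Rabs, Rab4b read 438 and 513 on the LT-HSC arrays against 310 and 255 (0.75, SE 0.28, limma adjusted p = 0.122). Leaving out either ST-HSC array made it pass, at 0.88 without replicate 2 and 0.65 without replicate 3. Its paralogue Rab4a, a dim gene, lay on the other side (-0.90, SE 0.39, limma adjusted p = 0.174). Rab11a, which returns cargo from the recycling endosome to the surface, was brightest on ST-HSC replicate 3 (965, against 426 to 485 on the others; -0.63, SE 0.36, limma adjusted p = 0.281). The difference was -0.15 without that array and -1.14 without ST-HSC replicate 2. The other Rab11a probe set was higher on both ST-HSC arrays (212 and 189 against 478 and 431) and just missed the threshold (-1.10, SE 0.28, limma adjusted p = 0.052). Rab14, which acts between the Golgi and early endosomes, read 3256 and 2770 against 2798 and 2057 with overlapping groups (0.06, 95% interval -0.44 to 0.55).

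Of 7 tested Rabs with other or less settled roles (Rab19, Rab23, Rab28, Rab36, Rab39b, Rab40b and Rab40c) 0 passed, with differences from -0.69 for Rab40b to 0.91 for Rab19. Over all genes 7.92% passed toward LT-HSC and 6.41% toward ST-HSC.

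**Figure D2:**
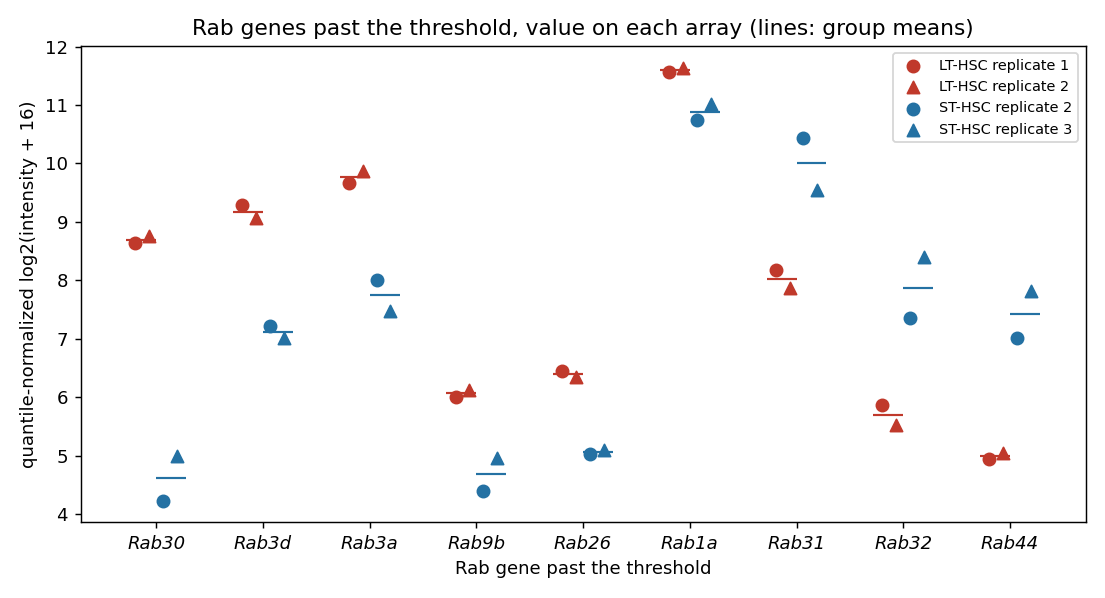
Quantile-normalized log2(intensity + 16) on each of the 4 arrays (y axis) for the 9 Rab genes past the threshold (x axis), LT-HSC in red and ST-HSC in blue, with lines at the group means. The groups do not overlap in any of these 9 called genes, and they do not overlap in 64.3% of all tested genes. The ST-HSC pair lies 0.81 apart for Rab44 and 1.06 apart for Rab32.

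A gene's probe sets often differed among themselves. Of 27 Rab genes with more than 1 tested probe set, 18 had the same sign on all of them and 9 did not. Rab3a passed on both of its probe sets, the second at 1.65 (limma adjusted p = 0.0303). Rab3d passed on 2 of 4, at 2.06 and 1.76, while the others lay at 0.84 and 0.31. Of the 9 called genes 4 (Rab26, Rab32, Rab44 and Rab9b) had 1 probe set on the array, so they have no second reading here. The other probe set of Rab30 was too dim to test (13.9 and 30.1 on the LT-HSC arrays against 4.5 and 10.3), so its call also rests on 1. Over single probe sets, 10 of the 105 tested for Rab genes were called toward LT-HSC (9.52%) and 4 toward ST-HSC (3.81%), against 6.72% and 5.48% of all 27022 probe sets.

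In 3 genes a dimmer probe set passed where the brightest did not. For Rab8a, an exocytic Rab of polarized transport and cilia, the brightest probe set overlapped between groups, with normalized log2 values of 7.80 and 7.62 on the LT-HSC arrays and 7.64 and 8.14 on the ST-HSC arrays (-0.18, SE 0.32). Another read 225 and 351 against 21.2 and 35.6 (2.83, SE 0.36, limma adjusted p = 0.00566), and averaging the probe sets gave 0.91 (limma adjusted p = 0.042). For Rab11b, a recycling Rab, the brightest overlapped between groups (285 and 270 against 277 and 295; 0.02, SE 0.28). Its dimmest read 14.9 and 13.2 against 28.4 and 31.4 (-0.50, SE 0.32) and did not pass. Another read 489 and 562 against 131 and 82.0 (2.22, SE 0.31, limma adjusted p = 0.00776), and it became the brightest when ranked by deposited intensity. For Rab27b, which secures granules in platelets and mast cells, the brightest lay at -0.34 (SE 0.37). Another read 11.2 and 9.19 on the LT-HSC arrays against 107 and 77.5 (-1.90, SE 0.32, limma adjusted p = 0.0148), and that ranking put it first too. The directions of Rab8a and Rab11b, and the calls of all 3 genes, thus rest on which probe set is read.

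**Figure D3:**
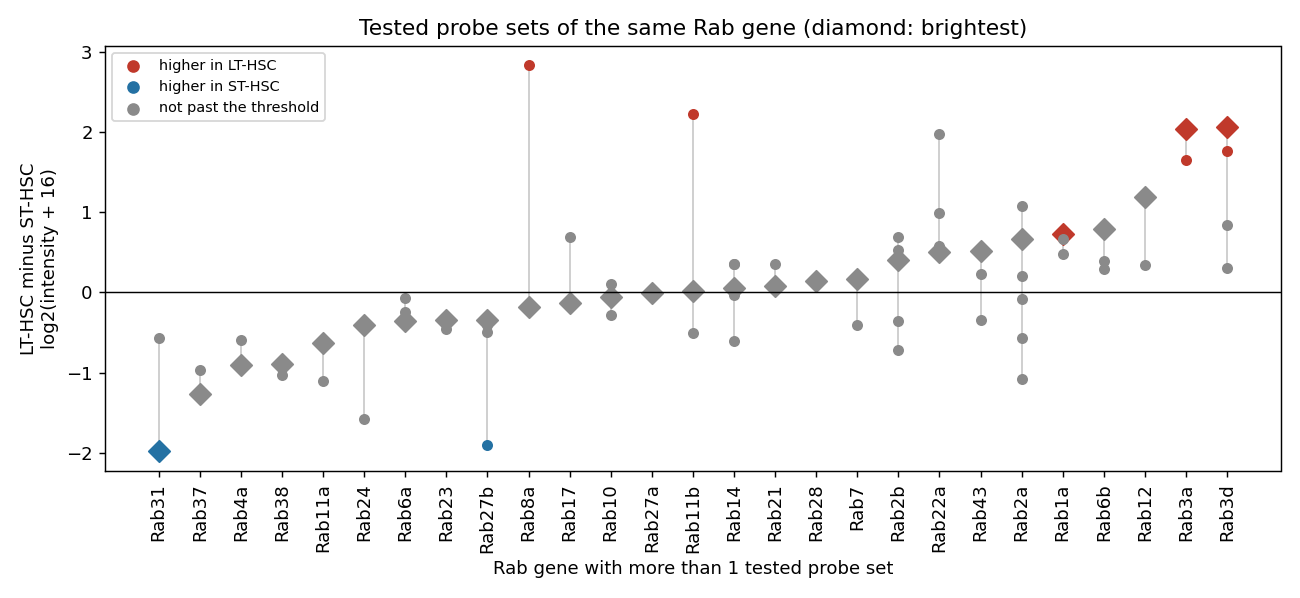
Log2 difference (LT-HSC minus ST-HSC, y axis) of each tested probe set of the 27 Rab genes with more than 1 (x axis), the brightest as a diamond and colour for the limma call. Single probe sets of Rab8a (2.83), Rab11b (2.22) and Rab27b (-1.90) passed while the diamond of the same gene is grey.

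Within the groups, the ST-HSC pair was the wider. The median absolute difference between its arrays over the 54 tested Rab genes was 0.56 on the log2 scale, against 0.15 for the LT-HSC pair, and the ST-HSC pair was the wider in 42 of 54 genes. Over all genes the medians were 0.37 and 0.23, and the ST-HSC pair was the wider in 8009 of 12832. The widest gaps were those of Rab5c, Rab24 and Rab6a, higher on ST-HSC replicate 3, and of Rab12 and Rab37, higher on ST-HSC replicate 2. Age, the time since the last injection and the neutrophil signal differed between these arrays, and their parts cannot be told apart.

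**Figure D4:**
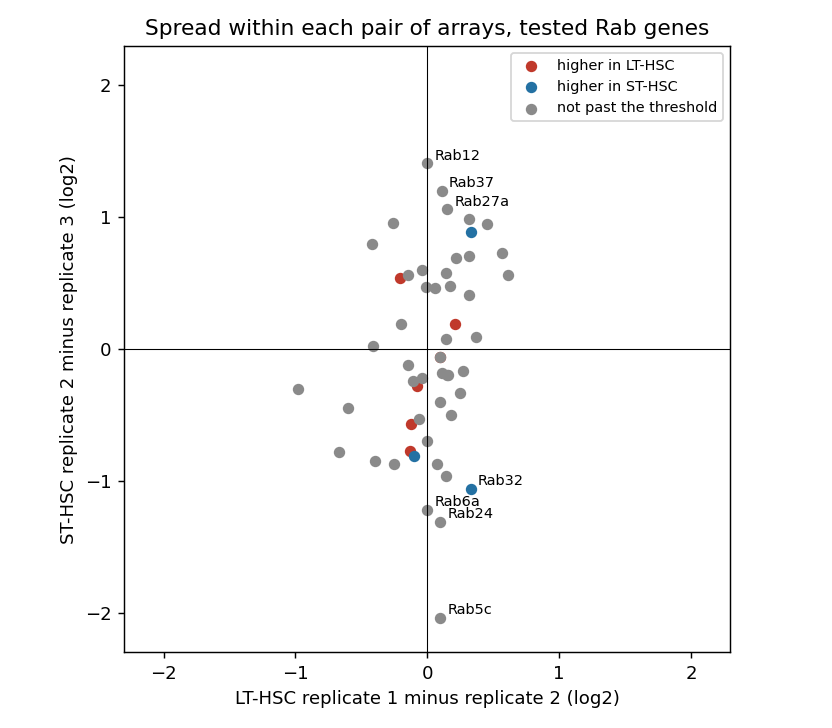
Difference between the LT-HSC arrays (x axis, log2) against that between the ST-HSC arrays (y axis, log2) for the 54 tested Rab genes, colour for the limma call and names where the ST-HSC gap exceeds 1. The points spread more along the y axis than along the x axis, with median absolute gaps of 0.56 and 0.15, and Rab5c is lowest.

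The direction of all 9 calls held with any 1 array left out, but most calls did not. Without LT-HSC replicate 1 or without LT-HSC replicate 2, Rab30 was the 1 Rab gene to pass (4.10, limma adjusted p = 0.014, and 4.04, limma adjusted p = 0.0168). The counts then fell to 1 toward LT-HSC and 0 toward ST-HSC, while the differences of Rab3a and Rab3d stayed between 1.88 and 2.17. With either ST-HSC array left out more Rab genes passed, though Rab9b did not without replicate 2. Counts over all genes moved widely too, as given below. Among mice of 7.5 weeks alone, that is without ST-HSC replicate 3, the 9 genes all passed, from -2.44 for Rab31 to 4.48 for Rab30. These fits had 1 residual degree of freedom, and a lone array is assumed to vary like the other group.

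**Figure D5:**
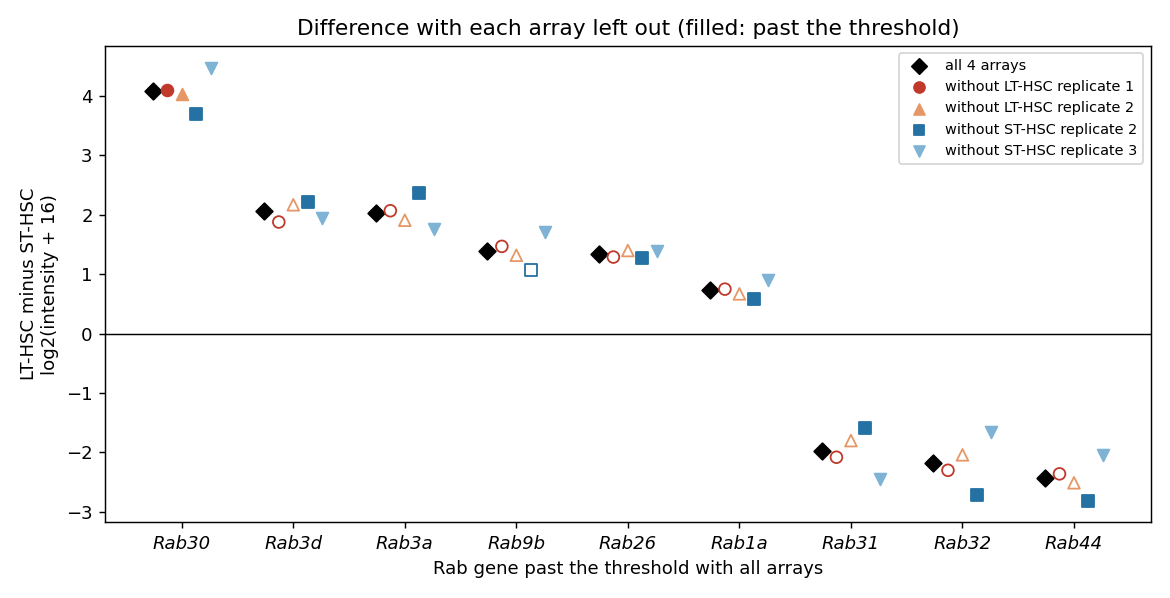
Log2 difference (LT-HSC minus ST-HSC, y axis) of the 9 called Rab genes (x axis) with all 4 arrays and with each array left out, filled where limma passed the threshold. Signs do not change, Rab30 is filled throughout, and the other 8 genes are open without either LT-HSC array.

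Genes that load, activate, inactivate and read Rab proteins were counted alongside. Of 135 tested genes 13 were higher in LT-HSC (9.63%), 5 were higher in ST-HSC (3.70%) and 117 did not pass, with a median of 0.05. These shares lie near the 7.92% and 6.41% of all genes, against which the counts of the smaller lists are also to be read. These counts fell without LT-HSC replicate 1 or 2 and rose without ST-HSC replicate 2 or 3. Counts over all genes moved widely too (ranges below). Of 9 genes of prenylation and membrane delivery 2 were higher in LT-HSC and 1 in ST-HSC. Rabif (Mss4), which holds exocytic Rabs in their nucleotide-free form, read 352 and 372 on the LT-HSC arrays against 86.7 and 110 (1.83, SE 0.32, limma adjusted p = 0.0164). Yipf5, a Golgi membrane protein of the family that binds Rabs, read 1257 and 1313 against 489 and 556 (1.18, SE 0.23, limma adjusted p = 0.023). Chml, an escort protein for Rab prenylation, read 18.5 and 39.6 on the LT-HSC arrays against 135 and 137 (-1.67, SE 0.31, limma adjusted p = 0.0212). Its paralogue Chm did not pass (0.36, SE 0.31), nor did the transferase subunits Rabggta (0.94, SE 0.30) and Rabggtb (-0.92, SE 0.32). Gdi2, which extracts Rabs from membranes, lay at 0.04 (95% interval -0.36 to 0.43).

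Of 42 tested exchange factors, which load Rabs with GTP, 4 were higher in LT-HSC and 2 in ST-HSC. Dennd5b, of the DENN family, read 583 and 569 on the LT-HSC arrays against 49.3 and 31.1 on the ST-HSC arrays, with no overlap (3.47, SE 0.31, limma adjusted p = 0.00152). Sbf2, of the same family, was also higher in LT-HSC (1.64, SE 0.30), while Dennd4c (-1.62, SE 0.35) and Dennd5a (-0.95, SE 0.24) were higher in ST-HSC. The paralogues Dennd5a and Dennd5b thus passed in opposite directions, each on its brightest probe set and Dennd5a narrowly (limma adjusted p = 0.0473). Of 35 GTPase-activating proteins, which switch Rabs off, 2 were higher in LT-HSC and 0 in ST-HSC. Evi5, a TBC-domain protein that binds Rab11, read 1045 and 1120 against 156 and 209 (2.49, SE 0.30, limma adjusted p = 0.00481).

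Of 49 effectors 5 were higher in LT-HSC and 2 in ST-HSC. Uso1 (p115), the Golgi tether recruited by Rab1, read 1033 and 1155 on the LT-HSC arrays against 264 and 171 on the ST-HSC arrays (2.25, SE 0.29, limma adjusted p = 0.00623). Rilpl2 and Rilpl1, which bind phosphorylated Rab8 and Rab10, were higher in LT-HSC by 2.18 (SE 0.23, limma adjusted p = 0.00326) and 1.62 (SE 0.30, limma adjusted p = 0.0198). Sytl4 (granuphilin), which docks granules with Rab27, read 20.8 and 31.3 on the LT-HSC arrays against 118 and 94.2 (-1.42, SE 0.30, limma adjusted p = 0.0289). Exoc6, the exocyst subunit that binds Rab11, read 216 and 201 against 439 and 545 (-1.12, SE 0.28, limma adjusted p = 0.0494).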

How the data were processed

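RNA was amplified in 2 rounds and labelled with biotin for 1-colour Affymetrix arrays, per the labels' protocols. The authors deposited intensity values on a linear scale for 45101 probe sets; for the summarisation and scaling no source used here gives the software. After leaving out 64 control probe sets, log2(intensity + 16) was quantile normalized (array medians spanned 0.33 before), probe sets with a mean not above the 40th percentile were dropped, and 27022 were fitted with limma 3.58.1 in R 4.3.3 (lmFit, eBayes with intensity trend, 2 residual degrees of freedom). Benjamini-Hochberg adjustment covered all 27022. With 2 against 2 arrays an exact permutation test cannot go below p = 0.33, and the number of arrays limits the precision. The platform annotation gave 34945 probe sets 1 symbol, 932 several and 9160 none used here. Replicates of a group were not known to pair with the other group.

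Named genes are the Rab genes past the threshold, the 5 of highest mean and a fixed set of well-known Rabs; of the Rab cycle genes, up to 8 of smallest p in each direction and the genes of prenylation and GDI. Rab33b and other Rabs named outside that rule were chosen after their values were seen. Members and lists were chosen with earlier results of these data known. Alternatives covered normalization, pseudocount, filter, spread model, probe set choice, threshold and each array left out, with the filter and the probe set of each gene then kept as in the comparison of 4 arrays. The procedure was tested on simulated data with independent noise, which holds no shift shared by many genes. No result here rests on that test. Protein sequences were not used here. Part of the genotype shared by all mice is not reported here.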

Additional observations from a re-analysis of the deposited data

How the results depend on the processing

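Of the 9 called Rab genes 7 were recomputed under 17 alternative settings and Rab26 and Rab9b under 16, since the stricter filter on dim probe sets dropped these 2, and 0 of the 9 changed sign where tested. No paired analysis was possible because LT-HSC (replicates 1 and 2) and ST-HSC (replicates 2 and 3) share only 1 replicate number. With arrays left out, the counts ranged from 1 to 14 for Rab genes higher in LT-HSC and 0 to 8 for those higher in ST-HSC, from 1 to 30 and 0 to 15 for Rab cycle genes, and from 267 to 2261 and 16 to 2505 for all genes; the Rab median ranged from -0.02 to 0.09. With no filter on dim probe sets 3 Rab genes were higher in LT-HSC. Rab cycle genes higher in ST-HSC numbered 3 with no filter, without the intensity trend, with cyclic loess and with a pseudocount of 64, and 8 at a threshold of 0.1, where 1599 of all genes were higher in ST-HSC. The Rab median was 0.12 with cyclic loess and 0.15 with median centring. Of 503 values of single Rab genes under alternatives 436 kept sign and call, 26 lost the call, 13 gained it and 28 changed sign, 0 of these 28 in a called gene. Signs turned for Rab10 (0.07 with cyclic loess, 0.20 with median centring, 0.09 without normalization), Rab8b (0.04, 0.17 and 0.07), Rab27a (0.10 with cyclic loess, 0.02 with median centring, 0.05 with probe sets averaged), Rab5b (0.07 with cyclic loess, 0.12 averaged), Rab11b (-0.04 without normalization), and, averaged, Rab14 (-0.05), Rab7 (-0.11) and Rab8a (0.91). With arrays left out the ranges were -0.30 to 0.19 for Rab10, -0.54 to 0.53 for Rab27a, -0.08 to 0.11 for Rab11b, -0.19 to 0.29 for Rab14, -0.17 to 0.10 for Rab5b, -0.01 to 0.31 for Rab1b, -1 to 0.26 for Rab6a, -0.44 to 0.07 for Rab8a and -0.53 to 0.01 for Rab9. The cause was not tested. Arrays carry no counts, and dim genes such as Rab9b and Rab26 are read near the floor.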

Other observations

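The other Rab cycle genes higher in LT-HSC, named here after their values were seen, were 5. Dennd3, an exchange factor of the DENN family, differed by 1.45 (SE 0.30, limma adjusted p = 0.0281), and Rabgef1 (rabex-5), the exchange factor of Rab5, by 1.39 (SE 0.30, limma adjusted p = 0.0326). Rabepk, which binds Rab9, differed by 1.74 (SE 0.40, limma adjusted p = 0.0376). Lrrk1, a kinase of Rab7, differed by 1.10 (SE 0.27, limma adjusted p = 0.047), and Rabgap1l, a TBC-domain protein, by 1.10 (SE 0.26, limma adjusted p = 0.0392). Both LT-HSC arrays lay above both ST-HSC arrays for each of the 5, as for 28.6% of all tested genes.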
